A study of Mus musculus with 36 samples.

Results

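The thrombospondins Thbs1, Thbs2, Thbs3 and Thbs4 and the spondins Spon1 and Spon2 were followed in liver RNA of 36 mice. These 6 genes were taken by symbol from the 24421 genes counted in every library, and all 6 were present. They were selected on the measured difference between Fc(mML1)B3 and Fc in the standard diet experiment, in which Thbs1, Thbs2 and Spon2 were known to be lower, so that their differences between the proteins in that experiment are a description. The differences are tested in the HFD experiment, with other mice, although earlier results of those mice were known too.

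All mice were C57BL/6J males, 7 weeks old on arrival, and were fed for 12 weeks a CDAHFD, a choline-deficient and amino acid-defined diet that produces steatohepatitis with fibrosis. In the HFD experiment, 10 mice received 4.3 mg/kg of Fc, the crystallizable region of an antibody, and 10 received 5 mg/kg of Fc(mML1)B3, the same region carrying a grafted macrocyclic peptide that binds the receptor Met, once a week during 2 weeks on a high-fat diet (HFD). In the other experiment, Fc (9 mice) or Fc(mML1)B3 (7 mice) was given at these doses on days 1, 4 and 7, and the livers were taken after 10 days on a standard diet. Diet therefore goes together with experiment, number of doses and duration, and these cannot be told apart. The CDAHFD itself was common to all 4 groups, and a liver without it was not analysed here.

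Thrombospondins are secreted glycoproteins of the extracellular matrix that assemble into oligomers and bind collagens, proteoglycans, integrins, CD36 and CD47. In fibrotic liver they are known as products of stellate cells, fibroblasts and endothelial cells, Thbs1 also as a product of platelets and as an activator of latent TGF-beta. The spondins carry type 1 repeats, as Thbs1 and Thbs2 but not Thbs3 and Thbs4 do, and form their own groups: Spon1 (F-spondin) is a matrix-attached protein that binds App family proteins, and Spon2 (mindin) is an integrin ligand and a recognition molecule of innate immunity.

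None of the 6 genes shares exonic bases with another gene. On mm10, Thbs1 lies on the plus strand at chr2:118111922-118127133, Thbs2 on the minus strand at chr17:14665500-14694262, and Thbs3 on the plus strand at chr3:89215187-89226837. Thbs4 lies on the minus strand at chr13:92751586-92794818, Spon1 on the plus strand at chr7:113765998-114043375, and Spon2 on the minus strand at chr5:33213518-33218238. The counts cover whole genes, with exonic lengths from 2237 bases (Spon2) to 6166 bases (Spon1).

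RefSeq promoter windows on GRCm38.p6, the assembly of mm10, were at hand for 3 of the 6 genes. The 250 bases before the start site of these are shown to set the promoters beside the levels, from Thbs2, the highest thrombospondin per length, to Thbs4, which had hardly any reads. They come from the minus strand at chr17:14694263-14694512 for Thbs2, the plus strand at chr3:89214930-89215179 for Thbs3 and the minus strand at chr13:92794819-92795068 for Thbs4, and are written 5′ to 3′. Capitals mark matches on either strand to 1 of 6 short motifs.
Thbs2: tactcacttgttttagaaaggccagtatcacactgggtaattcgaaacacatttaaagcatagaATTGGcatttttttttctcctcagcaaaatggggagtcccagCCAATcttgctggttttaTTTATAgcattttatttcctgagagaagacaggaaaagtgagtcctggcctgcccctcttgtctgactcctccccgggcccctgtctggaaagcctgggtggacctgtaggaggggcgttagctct
Thbs3: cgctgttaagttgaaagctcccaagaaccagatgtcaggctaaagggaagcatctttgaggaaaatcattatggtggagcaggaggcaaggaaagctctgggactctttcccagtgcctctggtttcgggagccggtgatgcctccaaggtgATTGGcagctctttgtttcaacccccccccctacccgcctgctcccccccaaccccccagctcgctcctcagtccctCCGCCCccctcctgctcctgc
Thbs4: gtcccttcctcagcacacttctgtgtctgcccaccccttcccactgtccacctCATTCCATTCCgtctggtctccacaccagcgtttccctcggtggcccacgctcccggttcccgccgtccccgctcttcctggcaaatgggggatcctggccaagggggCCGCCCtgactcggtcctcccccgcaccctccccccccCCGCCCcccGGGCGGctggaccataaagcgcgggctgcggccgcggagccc
The motifs searched were the AP-1 site TGANTCA, the TEAD site GGAATG, the GC box GGGCGG, the CCAAT box CCAAT, the TATA box TATAAA and the E-box CACGTG. The Thbs2 window held 2 CCAAT boxes, at 186 bases before the start site on the opposite strand and at 144 bases on the strand of the gene. It also held a TATA box on the opposite strand at 126 bases. The Thbs3 window held 1 CCAAT box at 98 bases and 1 GC box at 21 bases, both on the opposite strand. The Thbs4 window held 3 GC boxes at 89, 51 and 42 bases and 2 TEAD sites at 197 and 192 bases, which share 1 base, and it had no CCAAT or TATA box. Of these, only the GC box at 42 bases was on the strand of the gene. No other matches overlapped, and AP-1 sites and E-boxes were not in these windows. Over all 32851 windows of this length, 33.8% held a CCAAT box, 32.7% a GC box, 12.6% a TEAD site, 12.4% a TATA box, 6.75% an AP-1 site and 6.02% an E-box. GC content was 46.8% for Thbs2, 58.8% for Thbs3 and 70.8% for Thbs4, against a median of 52.4%. The matches are a description of these letters only.

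Counts of reads on genes totalled 14949035 to 28466853 per library, and levels are given as CPM, counts scaled to a common library total, after TMM scaling over 36 libraries. No 2 libraries of a group were alike within sampling noise. In whole liver, fewer cells of a type and less RNA per cell cannot be told apart. Of the 6 genes, 5 passed the filter on low counts in every comparison, and Thbs4 passed it in none.

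Thbs1 had 4.64, 7.69 and 9.99 CPM in the Fc mice under the HFD (lowest, median and highest, n = 10) and 2.61, 6.00 and 17.4 CPM in the Fc(mML1)B3 mice (n = 10). The means were 7.41 ± 2.05 (SD) and 7.05 ± 4.17 CPM. The 2 groups overlapped, 3 Fc(mML1)B3 mice lay below all Fc mice and 1 lay above them. Thbs1 differed by -0.07 on the log2 scale (SE 0.25, 95% interval -0.58 to 0.44, edgeR quasi-likelihood test, adjusted p = 0.883; permutation test with 100000 resamples, 2-sided p = 0.470). On the standard diet, Thbs1 had 4.08, 5.50 and 8.82 CPM after Fc (n = 9) and 2.09, 3.44 and 5.25 CPM after Fc(mML1)B3 (n = 7). Each of the 7 mice given Fc(mML1)B3 was below the Fc median and 5 were below every Fc mouse, with a log2 difference of -0.69 (SE 0.19).

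Thbs2, a relative of Thbs1 that inhibits angiogenesis and shapes collagen fibrils, had the highest level per length among the thrombospondins. Under the HFD it had 7.04, 14.7 and 28.6 CPM after Fc and 4.97, 8.27 and 27.4 CPM after Fc(mML1)B3. The ranges overlapped widely, but 8 of 10 Fc(mML1)B3 mice were below the Fc median. The means were 16.7 ± 7.35 and 10.9 ± 6.73 CPM (SD, n = 10 each), a log2 difference of -0.61 (SE 0.28, 95% interval -1.19 to -0.03). Its unadjusted edgeR p was 0.0411 and its adjusted p 0.149, so that it was not called, and the permutation test gave p = 0.048. In the standard diet mice Thbs2 had 9.71, 12.6 and 19.4 CPM after Fc and 5.12, 7.62 and 12.0 CPM after Fc(mML1)B3. Again 7 of 7 Fc(mML1)B3 mice were below the Fc median and 5 were below all Fc mice, with a log2 difference of -0.74 (SE 0.18).

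Thbs3, a pentameric thrombospondin known from the skeleton, was low in this liver, with 9 to 62 reads per library. Under the HFD it had 0.808, 1.56 and 2.38 CPM after Fc and 0.596, 1.01 and 3.06 CPM after Fc(mML1)B3, with overlapping groups. The log2 difference was -0.32 (SE 0.28, 95% interval -0.90 to 0.27, edgeR adjusted p = 0.482, permutation p = 0.136). Mice on the standard diet had 0.487, 1.23 and 1.37 CPM after Fc and 0.337, 0.846 and 1.00 CPM after Fc(mML1)B3. All 7 Fc(mML1)B3 mice were below the Fc median there, and 6 of them were within the range of the Fc mice, with a log2 difference of -0.47 (SE 0.25).

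Thbs4, the other pentameric thrombospondin, known from tendon and muscle, had 0 reads in 4 of the 10 mice given Fc and in 5 of the 10 given Fc(mML1)B3 on the HFD. It had 0 reads in 5 of 9 and 2 of 7 mice under the standard diet. Its medians were 0.104 and 0.043 CPM under the HFD and 0 and 0.083 CPM under the standard diet, below the level of 3 reads, which in the shallowest library of each group is 0.126 to 0.223 CPM. At this depth no difference could be detected, and no fold is given. Of its 56 reads in the Fc(mML1)B3 mice under the HFD, 50 came from 2 mice, with 1.67 and 0.718 CPM.

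Spon1 had 1.46, 7.70 and 15.6 CPM in the Fc mice under the HFD. In the Fc(mML1)B3 mice it had 2.15, 3.71 and 15.2 CPM, all within the range of the Fc mice. The log2 difference was -0.58 (SE 0.36, 95% interval -1.33 to 0.16, edgeR adjusted p = 0.287, permutation p = 0.152), with 7 of 10 mice below the Fc median. With the standard diet Spon1 had 1.41, 2.30 and 5.25 CPM after Fc and 1.24, 2.27 and 3.36 CPM after Fc(mML1)B3, with medians that nearly coincided and a log2 difference of -0.22 (SE 0.26). This value moved with single mice, to -0.03 without Fc mouse 6, -0.13 without Fc mouse 1, -0.12 without Fc(mML1)B3 mouse 1 and -0.34 without Fc(mML1)B3 mouse 2.

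Spon2 had 6.09, 8.47 and 13.8 CPM in the Fc mice and 5.12, 8.78 and 13.9 CPM in the Fc(mML1)B3 mice under the HFD. The ranges nearly coincided, and the log2 difference was -0.02 (SE 0.19, 95% interval -0.41 to 0.37, edgeR adjusted p = 0.956, permutation p = 0.703). Within the Fc(mML1)B3 group, however, 4 mice lay below every Fc mouse while 1 lay above them all. In the standard diet experiment it had 12.0, 14.5 and 18.8 CPM after Fc and 3.79, 5.50 and 6.07 CPM after Fc(mML1)B3. It was the only one of the 6 genes whose groups did not overlap in that experiment, with means of 14.8 ± 1.91 (SD, n = 9) and 5.09 ± 0.893 CPM (SD, n = 7) and a log2 difference of -1.54 (SE 0.11). Of all 13570 genes tested there, 1.11% were lower and 1.82% higher without overlap, and in the HFD experiment, where none of the 6 genes separated the groups, 0.399% and 0.511%.

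**Figure D1:**
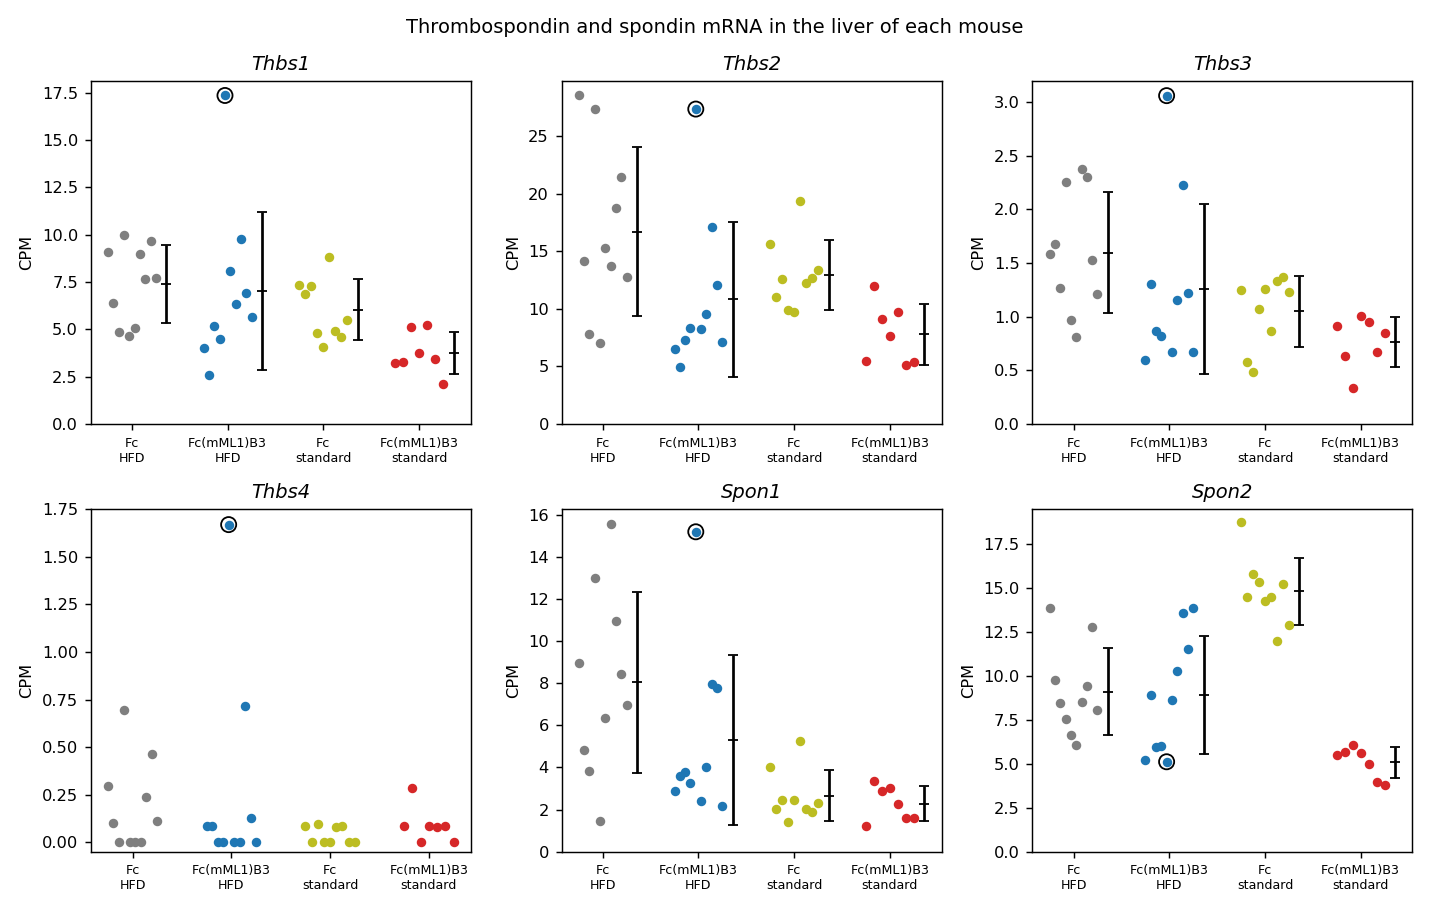
CPM of each gene (y axis, linear) in every mouse of the 4 groups (x axis), with the mean and SD as black bars except for Thbs4, and with HFD mouse 5 of the Fc(mML1)B3 group circled. Mouse 5 is the highest of its group for Thbs1, Thbs2, Thbs3, Thbs4 and Spon1 and the lowest for Spon2, and under the standard diet the Spon2 values of 3.79 to 6.07 CPM after Fc(mML1)B3 lie below those of 12.0 to 18.8 CPM after Fc.

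In the HFD experiment 0 of the 5 genes tested were called lower or higher at an adjusted p under 0.05, with edgeR and with DESeq2, and 1, Thbs2, had an unadjusted p under 0.05. Over all 13299 genes tested, edgeR called 6.68% lower and 8.14% higher. In the standard diet experiment Thbs1, Thbs2 and Spon2 passed the same threshold as lower, as was known when they were chosen, and none as higher, where 7.55% and 8.56% of the genes tested did. In a fit of all 36 libraries Thbs1 and Thbs2 were not past it, with nearly the same log2 differences, -0.69 and -0.73, and larger SEs, 0.26 and 0.29. Whether a gene's difference in 1 experiment was unlike that in the other was not tested. Side by side, the log2 differences on the HFD and on the standard diet were -0.07 and -0.69 for Thbs1, -0.61 and -0.74 for Thbs2, -0.32 and -0.47 for Thbs3, -0.58 and -0.22 for Spon1, and -0.02 and -1.54 for Spon2.

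The libraries of the Fc(mML1)B3 mice under the HFD carry 2 separate runs of suffix numbers in their names, mice 1 to 4 and mice 5 to 10, while the 10 Fc libraries form a run of their own. What the suffixes stand for is not given in the sources used here. With mice 1 to 4 alone, Thbs2 fell by 1.27 on the log2 scale (edgeR adjusted p = 0.0280) and Thbs1 by 0.83 (adjusted p = 0.0438), 2 of the 5 genes called lower, against 2.11% of the genes tested. Spon1 then differed by -1.20 (adjusted p = 0.0917), Thbs3 by -0.79 (adjusted p = 0.132) and Spon2 by -0.44 (adjusted p = 0.172). With mice 5 to 10 alone, 0 of the 5 were called, against 5.26% called lower. Their log2 differences were -0.28 for Thbs2, 0.30 for Thbs1, -0.06 for Thbs3, -0.26 for Spon1 and 0.21 for Spon2, so that Thbs1 and Spon2 had opposite signs in the 2 runs. Spon2 had 5.19, 5.98 and 8.93 CPM in mice 1 to 4 and 5.12, 10.9 and 13.9 CPM in mice 5 to 10. No run held Fc and Fc(mML1)B3 libraries together under the HFD, so that run and treatment cannot be told apart there.

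Among the HFD mice given Fc(mML1)B3, mouse 5 stood apart. It had 17.4 CPM of Thbs1, 27.4 of Thbs2, 3.06 of Thbs3, 1.67 of Thbs4 and 15.2 of Spon1, the highest of the group in each, and 5.12 of Spon2, the lowest. Mouse 8 came second in the first 5. Since mouse 5 was singled out by these same values, leaving it out lowers the differences of the tested genes in which it was highest. The p-values without it are therefore a description. Of 20 fits that each left out 1 HFD library, only the fit without mouse 5 called any of the genes. Without mouse 5, Thbs2 fell by 0.87 on the log2 scale (SE 0.25, 95% interval -1.38 to -0.36, edgeR adjusted p = 0.0158, 9 against 10 mice) and was called, 1 of 5 genes tested, where 10.8% of all genes were called lower. Spon1 then differed by -0.90 (SE 0.32, adjusted p = 0.0501), Thbs3 by -0.55 (adjusted p = 0.126), Thbs1 by -0.32 (adjusted p = 0.262) and Spon2 by 0.04 (adjusted p = 0.886). Mouse 5 also had the highest summed level of its group in 10 of 13 marker lists of liver cell types and of clock genes. Its cholangiocyte markers summed to 841 CPM against a group median of 309, and its portal fibroblast markers to 243 against 87.4. Its hepatocyte markers summed to 69745 CPM, the lowest of the group, whose median was 114802. The part of these cell types in the values of the 6 genes was not tested.

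**Figure D2:**
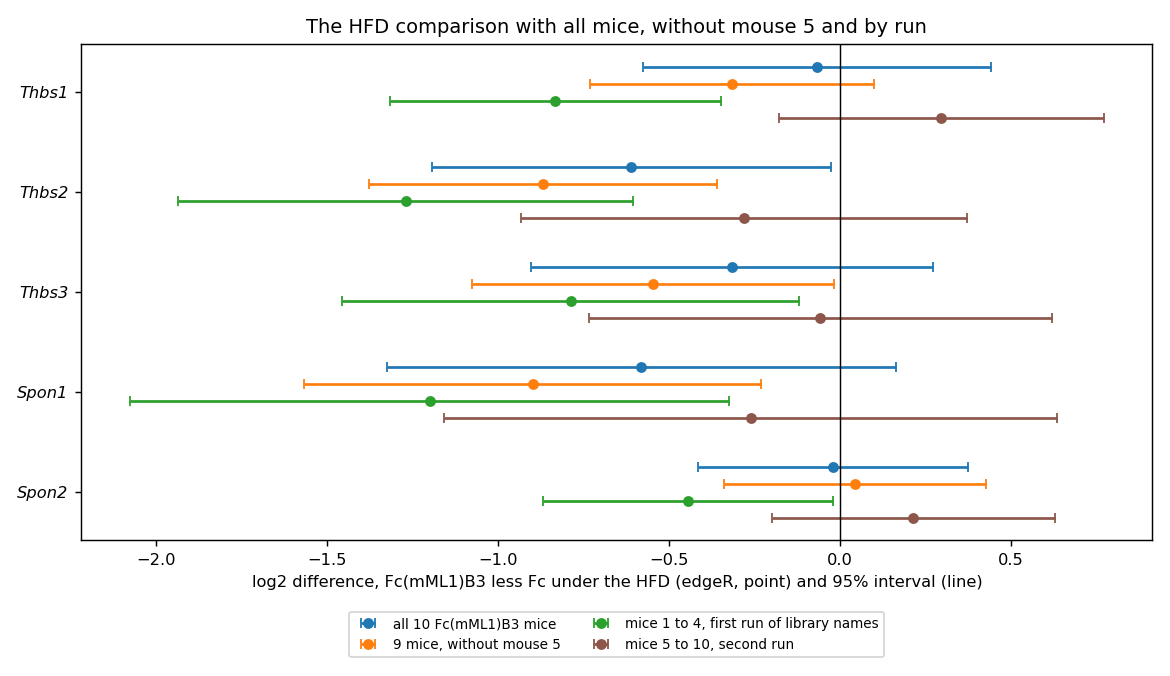
Log2 difference between Fc(mML1)B3 and Fc under the HFD (x axis, points) with 95% intervals (lines) for the 5 genes tested, with all 10 Fc(mML1)B3 mice, without mouse 5, and with the mice of either run of library names against the same 10 Fc mice. Thbs2 moves from -0.61 with all mice to -1.27 with mice 1 to 4 and -0.28 with mice 5 to 10.

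As for the standard diet experiment, 4 Fc libraries and all 7 Fc(mML1)B3 libraries shared a run of suffix numbers. Within it the log2 differences were -0.68 for Thbs1 (SE 0.23), -0.89 for Thbs2 (SE 0.21), -0.65 for Thbs3 (SE 0.28), -0.33 for Spon1 (SE 0.32) and -1.42 for Spon2 (SE 0.13). All 5 kept the direction of the whole experiment, and Thbs1 was not past the threshold within this run. Spon2 had 12.0 to 15.2 CPM in these 4 Fc mice and 14.3 to 18.8 CPM in the other 5, both above the 3.79 to 6.07 CPM after Fc(mML1)B3.

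Between the experiments, the same genes are described without a test, since these comparisons contain the mice with which the genes were chosen. Spon1 differed most in the Fc mice, with a mean of 2.65 ± 1.21 CPM (SD, n = 9) under the standard diet and 8.04 ± 4.29 CPM (SD, n = 10) under the HFD, a log2 difference of -1.59 (SE 0.34). In the Fc(mML1)B3 mice its means were 2.28 ± 0.824 (SD, n = 7) and 5.31 ± 4.02 CPM (SD, n = 10), with a log2 difference of -1.22 (SE 0.38). Spon1 was thus lower in the standard diet experiment with either protein. Spon2 was higher in the standard diet Fc mice than in the HFD Fc mice by 0.70 on the log2 scale (SE 0.16), and 7 of the 9 lay above every Fc mouse of the HFD. In the Fc(mML1)B3 mice it was lower in the standard diet experiment, with a log2 difference of -0.80 (SE 0.18). Spon2 was the only one of the 5 genes to differ in opposite directions in the Fc and the Fc(mML1)B3 mice. Thbs1, Thbs2 and Thbs3 were lower in the standard diet experiment, with log2 differences of -0.30, -0.36 and -0.59 in the Fc mice and of -0.91, -0.48 and -0.73 in the Fc(mML1)B3 mice. For Thbs2 these moved with single HFD mice, to -0.23 without Fc mouse 1, -0.24 without Fc mouse 4 and, in the Fc(mML1)B3 mice, -0.22 without mouse 5. No fit split these comparisons by runs of library names. Mean Thbs2 was 6.79 CPM in HFD Fc(mML1)B3 mice 1 to 4, 13.6 CPM in mice 5 to 10 and 7.79 CPM under the standard diet. For Thbs1 these means were 4.08, 9.03 and 3.74 CPM. Thbs1, Thbs3, Spon1 and Spon2 had a higher mean in either HFD run than under the standard diet. In none of the 5 did the ranges of the 2 experiments separate, while of 14105 genes 1.95% were lower and 7.47% higher without overlap in the Fc mice, and 2.6% and 7.3% in the Fc(mML1)B3 mice.

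**Figure D3:**
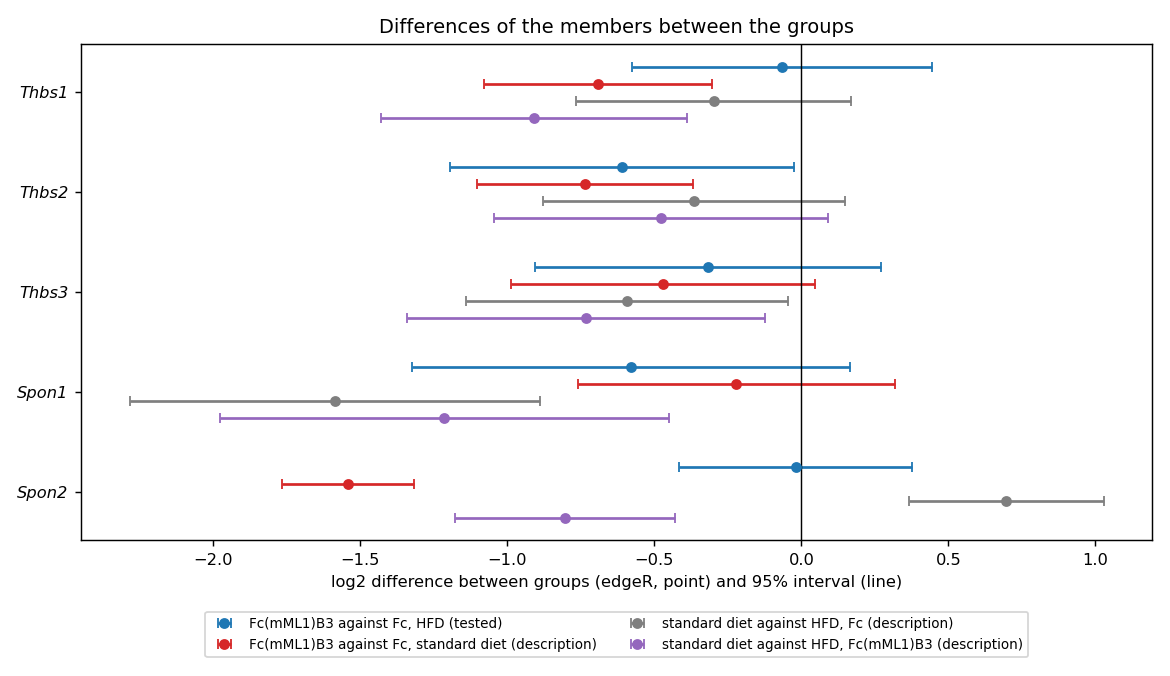
Log2 differences of the 5 genes that passed the filter (x axis, points) with 95% intervals (lines) in the comparisons of Fc(mML1)B3 with Fc in each experiment and of the standard diet with the HFD experiment for each protein. Only the comparison of the proteins under the HFD is a test. The others contain the mice with which the genes were chosen, and their intervals are a description. Spon2 lies at -1.54 under the standard diet and at -0.02 under the HFD, and at 0.70 and -0.80 between the experiments for Fc and Fc(mML1)B3.

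Per length, in the length-scaled unit RPKM, Spon2 was the highest of the 6 genes in every group, with a mean of 4.34 RPKM over 36 mice and a range of 1.69 to 8.39. Thbs2 followed with 2.10, Thbs1 with 1.08, Spon1 with 0.780, Thbs3 with 0.379 and Thbs4 with 0.048 RPKM. Spon1 and Thbs1 changed places in the Fc mice under the HFD, with 1.30 ± 0.696 and 1.28 ± 0.353 RPKM (SD, n = 10), a gap far smaller than their spread. In the Fc(mML1)B3 mice under the HFD, the gaps between Thbs2 and Thbs1, Thbs1 and Spon1, and Spon1 and Thbs3 were also smaller than the larger SD of each pair. In the standard diet experiment only Spon1 and Thbs3 stood that close, with either protein. Spon2 exceeded Thbs2 in 9 of 10 mice of both HFD groups and in every mouse of the standard diet, by 6.62 ± 0.856 against 2.19 ± 0.512 RPKM in the Fc mice (SD, n = 9) and by 2.27 ± 0.399 against 1.31 ± 0.446 RPKM in the Fc(mML1)B3 mice (SD, n = 7).

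**Figure D4:**
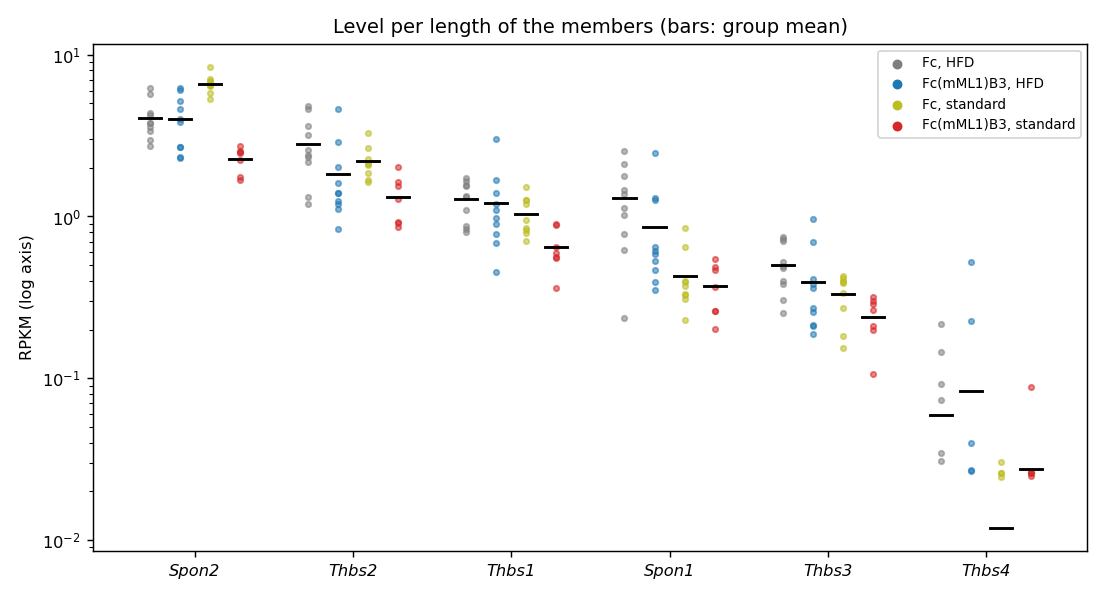
RPKM of the 6 genes (y axis, log scale) in each mouse (points, mice with 0 reads not drawn) of the 4 groups, with group means as black bars. Spon2 is highest in every group, with means from 2.27 to 6.62 RPKM, and Thbs4 lowest, with means from 0.012 to 0.084 RPKM.

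Within groups, Thbs1, Thbs2 and Spon1 varied together over 36 mice, and Thbs3 went with them in the HFD experiment. After subtraction of the group means, log2 CPM of Thbs2 and Spon1 correlated over 36 mice with r = 0.82 and rho = 0.81 (permutation within groups, p = 1e-05 for each, the smallest that 100000 resamples give, adjusted p = 5e-05 over 10 pairs). Without the 2 mice farthest from the median, r was 0.75, and r was 0.82 within the HFD experiment and 0.83 within the standard diet experiment. Thbs1 and Thbs2 had r = 0.81 and rho = 0.75 (permutation p = 1e-05 for each, adjusted p = 5e-05), with 0.73 without the 2 farthest mice. Within experiments r was 0.87 on the HFD and 0.63 on the standard diet, where the adjusted permutation p was 0.072 for r and 0.0487 for rho, which was 0.62. Thbs1 and Spon1 had r = 0.68 and rho = 0.67 over 36 mice (adjusted permutation p = 6.67e-05 and 0.000167). Thbs3 followed the others in the HFD experiment, with r = 0.81 and rho = 0.77 to Spon1 (adjusted permutation p = 0.0001 and 0.0004) and r = 0.69 and rho = 0.58 to Thbs2 (adjusted permutation p = 0.00278 and 0.0188). In the standard diet experiment r was -0.19 and -0.17 (adjusted permutation p = 0.560 and 0.563), with rho of -0.05 for both. Spon2 reached r = 0.08 to 0.24 with the 4 other genes over 36 mice (adjusted permutation p = 0.341 to 0.716) and rho = 0.09 to 0.36 (adjusted permutation p = 0.0808 to 0.615), and no relation passed the threshold. Without the 2 mice farthest from the median, r of Spon2 to Thbs1 was 0.58. In the standard diet experiment Spon2 had r = 0.50 with Thbs1, 0.50 with Thbs2 and 0.44 with Spon1 (adjusted permutation p = 0.134 to 0.141), and in the HFD experiment 0.18, 0.19 and 0.09 (adjusted permutation p = 0.579 to 0.703).

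The genes most like each member were ranked by r over 36 mice among 14100 others, as a description without a test. Differences between runs of library names within a group stayed in these values too. For Thbs2 they were Pdgfra, the PDGF receptor alpha of stellate cells and fibroblasts, with r = 0.93, Ahnak, a large scaffold protein, with r = 0.93, and Tmem45a with r = 0.92. For Spon1 they were Fblim1, an adaptor of the actin cytoskeleton, with r = 0.91, Timp2, an inhibitor of matrix metalloproteinases, with r = 0.91, and Col6a3, a collagen VI chain, with r = 0.90. For Thbs1 they were Eps8, an actin regulator, with r = 0.87, Adamts5, an aggrecan-cleaving protease with type 1 repeats, with r = 0.84, and Alcam, an adhesion molecule, with r = 0.83. Each of these 9 had r over 0.65 within both experiments. Thbs3 had lower values, with Limk2 (r = 0.69), Fnbp1 (r = 0.69) and Tmprss2 (r = 0.68), and within the standard diet experiment these fell to 0.35, 0.55 and 0.27. For Spon2 they were Eps8l2, a relative of Eps8 (r = 0.76), Btbd7 (r = 0.75) and Tjp3, a tight junction protein (r = 0.70). Within the standard diet experiment the 3 reached 0.41, 0.33 and -0.06, and within the HFD experiment 0.82, 0.81 and 0.84. Eps8l2 and Tjp3 fell under the standard diet as called by edgeR, by 0.95 (SE 0.06) and 0.60 (SE 0.09) on the log2 scale, but rose under the HFD, by 0.79 (SE 0.14) and 0.95 (SE 0.15), where Spon2 differed by -0.02.

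The relation of the genes to 13 marker lists, each taken as the mean of log2 CPM less the group mean, was given by 65 correlations. Runs of library names were not subtracted here either. Thbs2 went with cholangiocyte markers (r = 0.88, rho = 0.86), portal fibroblast markers (r = 0.87, rho = 0.86) and quiescent stellate cell markers (r = 0.79, rho = 0.73), and Spon1 with cholangiocyte markers (r = 0.89, rho = 0.91), portal fibroblast markers (r = 0.84, rho = 0.80) and activated stellate cell and myofibroblast markers (r = 0.77, rho = 0.74). Each of these 6 had a permutation p of 1e-05 for r and for rho, the smallest possible, with adjusted p of 8.13e-05 and 7.22e-05, and without the 2 farthest mice r was 0.70 to 0.85. Thbs2 went against hepatocyte markers (r = -0.77, rho = -0.69, with the same permutation p), with -0.84 within the HFD experiment and -0.43 within the standard diet experiment. Endothelial markers also went against Thbs2 (r = -0.52, rho = -0.54, adjusted permutation p = 0.00869 and 0.0049) and Spon1 (r = -0.43, rho = -0.43, adjusted permutation p = 0.0279 and 0.0307). Mesothelial markers went with Thbs2 (r = 0.76, rho = 0.72, adjusted permutation p = 8.13e-05 and 7.22e-05). So did activated stellate cell and myofibroblast markers (r = 0.71, rho = 0.65, adjusted permutation p = 0.000195 and 0.000715). Quiescent stellate cell markers went with Spon1 as well (r = 0.55, rho = 0.54, adjusted permutation p = 0.0078 and 0.0067). Spon2 had r between -0.37 and 0.23 with the 13 lists, and none passed an adjusted permutation p of 0.05. Thbs1 went with cholangiocyte (r = 0.69, rho = 0.70), portal fibroblast (r = 0.68, rho = 0.62) and quiescent stellate cell markers (r = 0.66, rho = 0.60). It went against hepatocyte markers (r = -0.60, rho = -0.45). The adjusted permutation p of these was at most 0.00403 for r and 0.0266 for rho. Platelet markers, a known source of Thbs1 protein, had r = -0.08 with Thbs1 (permutation p = 0.707) and rho = -0.18 (permutation p = 0.314). The platelet score rested on 3 of 7 genes, and the list summed to 4.62 to 8.79 CPM, so that a relation could have been missed.

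**Figure D5:**
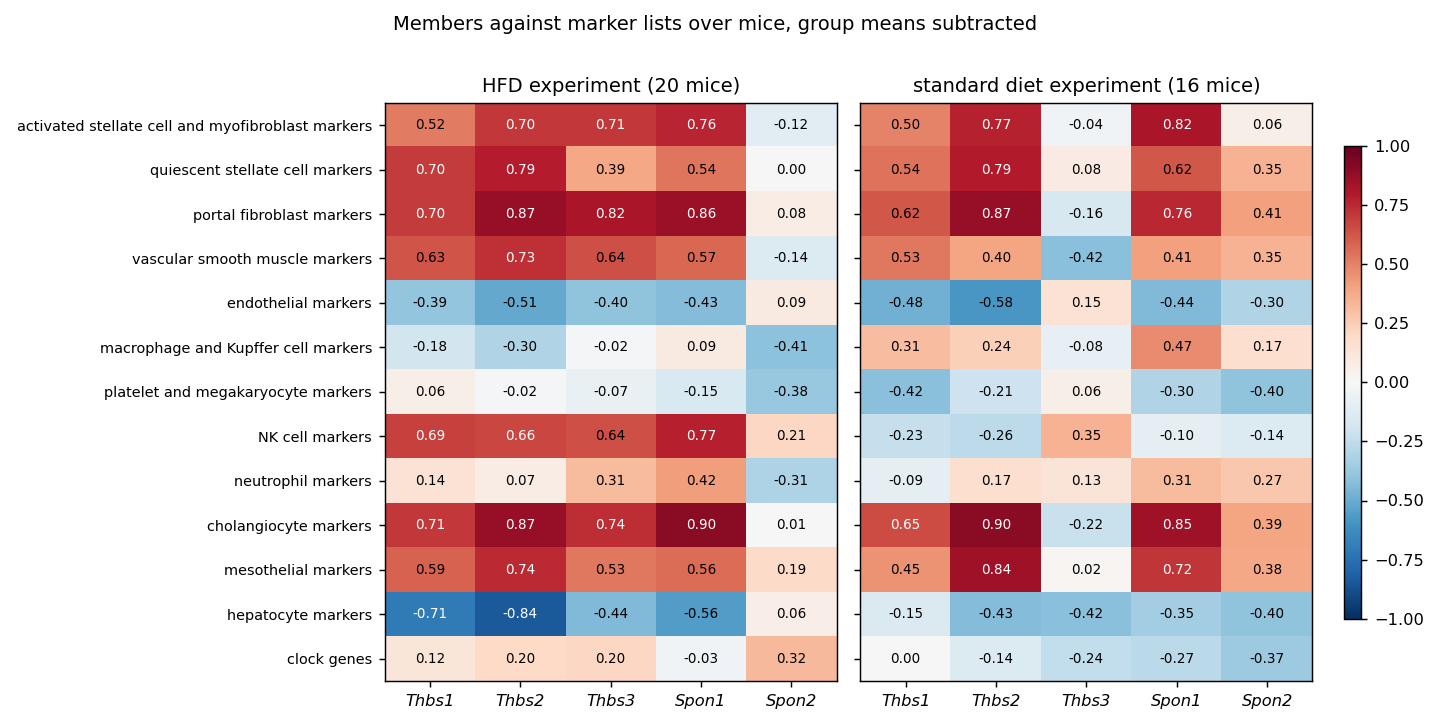
Pearson r between each of 5 genes (x axis) and the mean of each marker list (y axis) over the mice of the HFD experiment (left) and the standard diet experiment (right), with group means subtracted and r printed in each cell. Thbs2 and Spon1 are high with portal fibroblast and cholangiocyte markers in both, from 0.76 to 0.90, and Spon2 stays between -0.41 and 0.41 throughout.

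The marker lists were compared between the proteins as well. Under the HFD, edgeR called 0 of 7 activated stellate cell and myofibroblast markers, 0 of 7 portal fibroblast markers tested, 0 of 5 cholangiocyte markers, 0 of 7 endothelial markers and 0 of 2 platelet markers tested, and 1 of 8 quiescent stellate cell markers as lower. The activated markers summed to 297, 532 and 664 CPM after Fc (lowest, median and highest) and 261, 358 and 787 CPM after Fc(mML1)B3, where the highest was mouse 5 and the next, mouse 8, had 507 CPM. The portal fibroblast markers summed to 66.4, 122 and 207 CPM and 52.9, 87.4 and 243 CPM, and the cholangiocyte markers to 168, 571 and 854 CPM and 166, 309 and 841 CPM. In these 3 lists the median was lower after Fc(mML1)B3 and the groups overlapped. Of the neutrophil markers 3 of 4 fell, against 6.68% of all genes tested, with sums of 13.3 to 64.5 and 11.2 to 20.3 CPM, and of 13 clock genes tested 6 fell and 5 rose, where 8.14% of all genes rose. On the standard diet, where 7.55% of all genes tested were called lower, 1 of 7 activated stellate cell markers, 2 of 8 quiescent stellate cell markers, 1 of 7 portal fibroblast markers tested and 1 of 5 cholangiocyte markers fell, 0 of 7 endothelial, 0 of 4 neutrophil and 0 of 3 platelet markers tested were called, and of 14 clock genes 4 fell and 6 rose, where 8.56% of all genes rose. The sums of the activated markers were 265 to 452 CPM after Fc and 207 to 287 CPM after Fc(mML1)B3. Of the vascular smooth muscle, macrophage and Kupffer cell, NK cell, mesothelial and hepatocyte lists, edgeR called 1 gene, the hepatocyte marker Hnf4a, under the HFD, where it rose, and under the standard diet Smtn and Gpnmb, which fell, and Cps1, which rose. No defining marker of these lists was at 0 in a whole experiment, and hepatocyte markers summed to 69745 CPM or more in every mouse, as the label liver says. The part of these lists in the differences of the 6 genes was not tested.

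Receptors and cell-surface partners of thrombospondins and spondins formed a list of 20 genes, of which 19 were tested. Under the HFD 0 were called, against 6.68% lower and 8.14% higher over all genes tested, with a median log2 difference of -0.12 against -0.01 over all genes tested, and Sirpa, the counter-receptor of CD47, had the smallest p, with -0.35 (SE 0.13, edgeR adjusted p = 0.080). Under the standard diet 4 fell and 0 rose, against 7.55% and 8.56% of all genes tested, with a median of -0.20 against -0.01. They were Calr, the calreticulin that binds Thbs1 at the cell surface (-0.32, SE 0.07), the integrin chains Itgav (-0.23, SE 0.05) and Itga3 (-0.29, SE 0.08), and Sirpa (-0.36, SE 0.11). Calr was at 1145 ± 85.4 CPM after Fc and 920 ± 99.2 CPM after Fc(mML1)B3 (SD, n = 9 and 7), lower than the Fc median in 7 of 7 mice.

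Of 17 genes of TGF-beta ligands, activation and targets, 16 were tested under the HFD. Among those that fell were Tgfb1, the ligand that Thbs1 is known to activate (-0.41, SE 0.12, edgeR adjusted p = 0.022), and its receptor Tgfbr2 (-0.29, SE 0.08, adjusted p = 0.020). Tgfb1 was at 31.1 ± 7.39 CPM after Fc and 23.2 ± 3.64 CPM after Fc(mML1)B3 (SD, n = 10 each). None of the list rose, while of all genes tested 6.68% were called lower and 8.14% higher. Under the standard diet 17 were tested, with 1 called lower and 1 higher, shares below the 7.55% and 8.56% of all genes tested. Lrrc32, an anchor of latent TGF-beta, fell (-0.34, SE 0.11, edgeR adjusted p = 0.045) and Tgfbr2 rose (0.22, SE 0.06, adjusted p = 0.010). Tgfbr2 was thus called in opposite directions in the 2 experiments, 45.4 ± 8.76 against 56.0 ± 4.03 CPM under the HFD and 56.1 ± 4.46 against 47.9 ± 3.86 CPM under the standard diet. The median log2 difference of the list was -0.17 on the HFD and -0.09 on the standard diet.

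Of 38 other genes of type 1 repeat proteins and Comp, 25 were tested under the HFD. Adamts1, a protease of versican and aggrecan, rose by 0.53 (SE 0.13, edgeR adjusted p = 0.007), and Wisp1, a CCN family protein, fell by 0.54 (SE 0.16, adjusted p = 0.025). With 1 gene in each direction, the shares of the list were below the 6.68% called lower and 8.14% called higher over all genes. Under the standard diet 28 were tested, 5 fell and 1 rose, against the same 7.55% and 8.56%. The 5 were the proteases Adamts2, Adamts4, Adamts5, Adamts9 and Adamts14, of which Adamts9 fell by 0.91 (SE 0.15), Adamts4 by 1.19 (SE 0.28) and Adamts2, which trims procollagen, by 0.38 (SE 0.11), and the gene that rose was Adamtsl5 (0.55, SE 0.18). Adamts4 rested on a mean of 0.801 CPM after Fc. Comp, the closest relative of Thbs3 and Thbs4, was below the filter in both experiments. The medians of this list were -0.13 on the HFD and -0.18 on the standard diet.

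Matrix partners of thrombospondins, a list of 22 genes, had 21 tested and 0 called under the HFD, against the same 6.68% and 8.14%, with a median of -0.22 against -0.01 over all genes tested. Fbn1, the microfibril protein fibrillin 1, had the smallest p there, with -0.52 (SE 0.19, edgeR adjusted p = 0.071). On the standard diet 2 of 22 fell, a share near the 7.55% of all genes tested, and 0 rose, with a median of -0.21. They were Fbn1 (-0.35, SE 0.10) and Col5a2, a collagen V chain (-0.32, SE 0.10).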

How the data were processed

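Liver RNA of 36 mice in 4 groups was sequenced from directional libraries. Per the labels and file headers, the authors trimmed reads with fastp, removed ribosomal RNA with Bowtie2 2.4.5, aligned to mm10 with STAR 2.7.10a and counted reads per gene with featureCounts 2.0.3, requiring both ends to align, counting each end as a read and ignoring strand. The deposited values are raw counts per gene, with gene lengths beside them.

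From the counts, each diet was tested separately in edgeR 4.0.16 (R 4.3.3; glmQLFit and glmQLFTest), after TMM, filterByExpr and Benjamini-Hochberg adjustment over all genes tested, and called at an adjusted p under 0.05. SE is the size of the log2 difference over the square root of F. Diet comparisons used 1 fit of 36 libraries. Log2 CPM used a pseudocount of 0.5 reads. Groups and mouse numbers come from the sample titles. The permutation tests were 2-sided with 100000 resamples, on mean log2 CPM between groups or, for correlations, by shuffling within groups. The fit was first tested on simulated data.

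The 6 genes, the lists and the tests were chosen with earlier results of these data known. Named genes are the 6 members, the 3 genes most like each by r, and from each of 4 pathway lists up to 3 called genes per direction with the smallest p, or the 1 with the smallest p where none was called. Names of other called list genes were given where a count was 5 or fewer. A gene that the rule names is not reported here. Alternatives were DESeq2 1.42.0, upper-quartile and total-count scaling, a filter at 0.5 CPM, a fit of all 36 libraries, a replicate block, runs of library names, the thresholds of the study and each library left out.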

Additional observations from a re-analysis of the deposited data

Results flagged for a closer look

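Of 24 combinations of gene and group that were examined, 4 had a mouse far from the others of its group by Dixon's criterion, which chance meets in about 1 in 20. Among the HFD mice given Fc(mML1)B3, mouse 5 was far above the rest for Thbs1, with 17.3585 CPM against 9.7688 in the next mouse. The same mouse was far above for Thbs4, with 1.6691 CPM against 0.7183, and for Spon1, with 15.1887 CPM against 7.9731. Among the standard diet mice given Fc(mML1)B3, mouse 2 was far above for Thbs4, with 0.2831 CPM, which is 8 reads, against 0.084 CPM.

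Of the genes most like Spon2, Eps8l2 and Tjp3 moved in opposite directions in the experiments. Every HFD mouse given Fc(mML1)B3 was above the Fc median and every such standard diet mouse was below it, with log2 differences of 0.79 and -0.95 for Eps8l2 and 0.95 and -0.60 for Tjp3. The difference between the experiments was not tested.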

How the results depend on the processing

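In log2 differences, the direction of Thbs2, Thbs3 and Spon1 under the HFD and of the 5 tested genes under the standard diet and between the experiments was the same under every alternative run. The split by runs of library names was not among the alternatives between the experiments. With the first run of Fc(mML1)B3 libraries under the HFD, Thbs1 was -0.83 and Thbs2 -1.27 (2 genes called lower in place of 0), and with the second run Thbs1 was 0.30 and Spon2 0.21, reversed in sign. Leaving out each library gave -0.32 to 0.038 for Thbs1, -0.87 to -0.49 for Thbs2, -0.10 to 0.063 for Spon2 and 0 to 1 genes called lower. Spon2 changed sign without mouse 1 or 9 of the Fc group or mouse 1, 3, 4 or 5 of the Fc(mML1)B3 group, and Thbs1 without mouse 1 or 2 of the latter, in each case close to 0. With 36 libraries in 1 fit, 1 gene, Spon2 (in place of 3), was past the threshold under the standard diet, and within the shared run Thbs1 was not past it (-0.68, SE 0.23).

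Counts over the 97 genes of the 4 pathway lists moved more. Under the HFD 81 were tested, 4 fell and 1 rose (4.94% and 1.23%, against 6.68% and 8.14% of all genes tested). With 36 libraries in 1 fit 11 fell and 3 rose, with DESeq2 2 rose, with the first run 2 fell, with the second run 2 fell and 2 rose, and at the thresholds of the study 1 fell and 0 rose. Leaving out each library gave 3 to 13 falling and 1 to 4 rising, with 7 falling without Fc mouse 5, 3 rising without Fc mouse 8, 2 rising without Fc(mML1)B3 mouse 2, and 13 falling and 4 rising without Fc(mML1)B3 mouse 5. Under the standard diet 86 were tested, 12 fell and 2 rose (13.95% and 2.33%, against 7.55% and 8.56%). With 36 libraries in 1 fit 2 fell and 0 rose, with library totals 0 rose, with the shared run 5 fell and 1 rose, and at the thresholds of the study 2 fell and 0 rose. Leaving out each library gave 6 to 15 falling, with 7 and 6 without Fc(mML1)B3 mouse 1 and 6, and 1 to 3 rising, with 1 without Fc mouse 1, 2, 3, 5 or 8 or Fc(mML1)B3 mouse 2, 3, 4 or 7. The cause of these shifts was not tested.

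Whether mice with the same replicate number share more than a number is not given in the sources used here. Of such pairs, 1 of 10 under the HFD and 0 of 7 under the standard diet had a correlation of deviations over 0.1, which cannot settle it. With the replicate block, the listed genes numbered 1 falling under the HFD, and 6 falling and 0 rising under the standard diet, and no call of the 6 genes moved under the HFD. Under the standard diet Thbs2 was then not past the threshold (-0.76, SE 0.23), and between the experiments Thbs2 was -0.29 and Spon2 -0.48 in the Fc(mML1)B3 mice, in place of -0.48 and -0.80.

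Within the standard diet experiment, correlations were 0.59 for Thbs1 with Spon1 and 0.63 for Thbs1 with Thbs2, both with an adjusted permutation p of 0.072 (rho 0.62 for both, adjusted permutation p = 0.0487), and -0.49 for Thbs1 with Thbs3, -0.17 for Thbs2 with Thbs3, -0.19 for Thbs3 with Spon1 and -0.24 for Thbs3 with Spon2, reversed from 36 mice. Within the HFD experiment Thbs1 and Thbs3 reached 0.66 (adjusted permutation p = 0.00682). At 9 to 62 reads, counting error adds to the spread of Thbs3, and Thbs4 is below what this depth resolves.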
